A study of Homo sapiens with 16 samples.

Results

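The mRNAs described here encode the translation elongation factors EEF1A1, EEF1B2, EEF1D, EEF1G and EEF2 and 5 further proteins whose messages are known to carry a 5 prime terminal oligopyrimidine tract (TOP), namely TPT1, NPM1, PABPC1, NACA and BTF3. They were chosen by gene symbol, all 10 were in the deposited table of 13148 genes, and none was listed at 0 in any library. RNA came from 293S cells, an established human line of the HEK293 family, which were either untreated (control) or exposed for 30 minutes to sodium arsenite at 1 mM. Extracts of each treatment were separated on a sucrose gradient, which spreads RNA by the size of the particle it travels in, and 8 fractions per gradient were sequenced as 1 library each. There were thus 16 libraries and no replicates, so every value below is a description with no p-value and no replicate error.

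A TOP mRNA begins directly at its cap with a C followed by a run of C and T (in RNA, C and U). Such messages encode ribosomal proteins, elongation factors and other parts of the translation machinery. They are known to be taken up by ribosomes, or to be stored without them, in response to growth signals, through the kinase mTORC1 and the cap-binding protein LARP1. Arsenite causes oxidative stress and is known to block initiation of translation through phosphorylation of eIF2. On a sucrose gradient, an mRNA that carries more ribosomes sediments further.

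The tracts themselves are shown because a tract at the start is what the term TOP refers to. RefSeq start sequences (GRCh38.p14) matched 8 of the 10 genes. EEF1D and PABPC1 had no entry. Each line gives 10 bases before the annotated start and 20 from it, 5 prime to 3 prime on the coding strand, with the unbroken run of C and T that begins with a C at the first transcribed base in capitals. EEF1B2 and NPM1 each have another annotated start, which has no such run.
EEF1A1 (chr6:73521013-73521042, minus strand): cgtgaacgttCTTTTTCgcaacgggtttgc
EEF1B2 (chr2:206159885-206159914, plus strand): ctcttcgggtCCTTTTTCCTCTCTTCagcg
EEF1G (chr11:62573872-62573901, minus strand): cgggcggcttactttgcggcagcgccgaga
EEF2 (chr19:3985444-3985473, minus strand): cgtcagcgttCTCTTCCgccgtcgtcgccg
TPT1 (chr13:45341164-45341193, minus strand): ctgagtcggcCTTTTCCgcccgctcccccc
NPM1 (chr5:171387839-171387868, plus strand): agcctgcgtcCTTTCCCTggtgtgattccg
NACA (chr12:56725280-56725309, minus strand): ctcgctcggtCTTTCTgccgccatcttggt
BTF3 (chr5:73498432-73498461, plus strand): cttccggcctCCCTTTagctgccatcttgc

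The run was 16 bases long in EEF1B2, 8 in NPM1, 7 in EEF1A1, EEF2 and TPT1, and 6 in NACA and BTF3. At the annotated start of EEF1G the first base is not a C, so no run was counted there. A run of at least 5 bases stood at 7 of these 8 genes, at 45 of 61 ribosomal protein genes with a start sequence, and at 727 of the 9804 genes of the deposited table with one (7.42%). Counted by start window, a gene having 1 or more, it stood at 1429 of 35116 in the RefSeq table (4.07%). Start sequences matched 74.6% of the genes in the deposited table, so these shares may not hold for the rest, and gradient profiles were not compared between genes with and without a tract.

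The table gives, for each gene and gradient, how its total was divided over the 8 fractions. Shares of a gene add up to 100% in each gradient, so a gain in one fraction and a loss in another cannot be told apart, and neither RNA level nor read depth can be read from them. For the same reason the cell line could not be checked against marker genes. The labels do not give the direction in which fractions were numbered. Nor do the sources used here say how libraries were scaled against each other. Values rescaled by size factors (the median-of-ratios method, by which the typical gene is made alike in the 16 libraries) are therefore printed where they change a statement. Several of these genes have many processed copies in the genome: GENCODE names 45 pseudogenes of NPM1, 39 of EEF1A1, 14 each of TPT1 and BTF3, 13 of PABPC1 and none of EEF2. The sources used here do not say how reads from such copies were assigned, and single values are uncertain to that extent.

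In untreated cells some of these mRNAs were split between a low-numbered and a high-numbered part of the gradient, and others had 1 main peak. The elongation factor eEF1A, which brings aminoacyl-tRNA to the ribosome, is encoded by EEF1A1. Control fractions 1 to 8 held 2.55, 10.3, 25.1, 11.03, 7.88, 10.9, 28.4 and 3.79% of EEF1A1, with peaks in fractions 3 and 7 and a low point in fraction 5. In the median gene fraction 5 was instead the largest, at 19.1%, and 4.8% of genes had a lower share there than EEF1A1.

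The other eEF1 subunits form the complex that exchanges GDP for GTP on eEF1A. For EEF1B2, which encodes the catalytic subunit eEF1B alpha, the 8 control shares were 5.14, 5.46, 23.6, 23.1, 18.5, 17.7, 5.26 and 1.28%, a single broad hump over fractions 3 to 6, although with size factors fraction 1 held 17.2%. For EEF1D, which encodes the second exchange subunit, they were 6.30, 9.76, 14.8, 8.79, 12.9, 36.9, 7.92 and 2.64%. Its main peak was in fraction 6, where 95.3% of genes had a smaller share. For EEF1G, which encodes the scaffold subunit eEF1B gamma, they were 4.78, 16.3, 30.3, 6.37, 6.94, 21.5, 11.9 and 1.84%. EEF1G thus had its larger peak in fraction 3 and a smaller one in fraction 6, and in fraction 4 only 2.3% of genes had a lower share. With size factors its largest share was in fraction 2 (22.2%, and 21.3% in fraction 3), and fractions 6 and 7 were alike at 14.1%. Subunits of 1 complex therefore differed in profile.

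EEF2 encodes the GTPase that moves the ribosome along the mRNA after each peptide bond. Its control shares were 0.836, 10.7, 18.0, 6.84, 6.56, 12.8, 34.8 and 9.44%, with peaks in fractions 3 and 7. EEF2 had the highest position of the 10 mRNAs, at 5.33. Position here is the mean fraction number weighted by the shares, and 89.6% of all genes had a lower one.

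TPT1, which encodes the translationally controlled tumor protein TCTP, lay at the opposite end. Its control shares were 14.7, 17.1, 36.1, 8.49, 11.96, 8.53, 2.24 and 0.877%. Fractions 1 to 3 together held 67.9% of TPT1, against a median of 26.6% over all genes, and its position of 3.25 was above that of only 2.51% of genes. NPM1 encodes nucleophosmin, an abundant nucleolar chaperone. Its shares were 7.91, 5.48, 10.3, 9.01, 13.1, 35.2, 15.4 and 3.61%, with the main peak in fraction 6 and 23.7% in fractions 1 to 3. With size factors fraction 1 held 21.4% of NPM1, about as much as fraction 6 at 21.9%.

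PABPC1 encodes the main cytoplasmic poly(A)-binding protein. Its control shares were 4.11, 25.5, 28.2, 8.12, 5.83, 7.43, 14.9 and 5.91%. The bulk lay in fractions 2 and 3, with a second rise in fraction 7, and 2.6% of genes had a smaller share in fraction 5. NACA and BTF3 encode the alpha and beta subunits of the nascent polypeptide-associated complex, which binds new chains at the ribosome exit. The control shares of NACA were 11.1, 6.004, 14.5, 14.5, 29.4, 17.2, 5.29 and 1.92%, and those of BTF3 were 9.31, 6.86, 13.0, 10.7, 29.8, 23.2, 5.49 and 1.59%. Both had their peak in fraction 5, like the median gene, and with size factors in fraction 1.

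**Figure D1:**
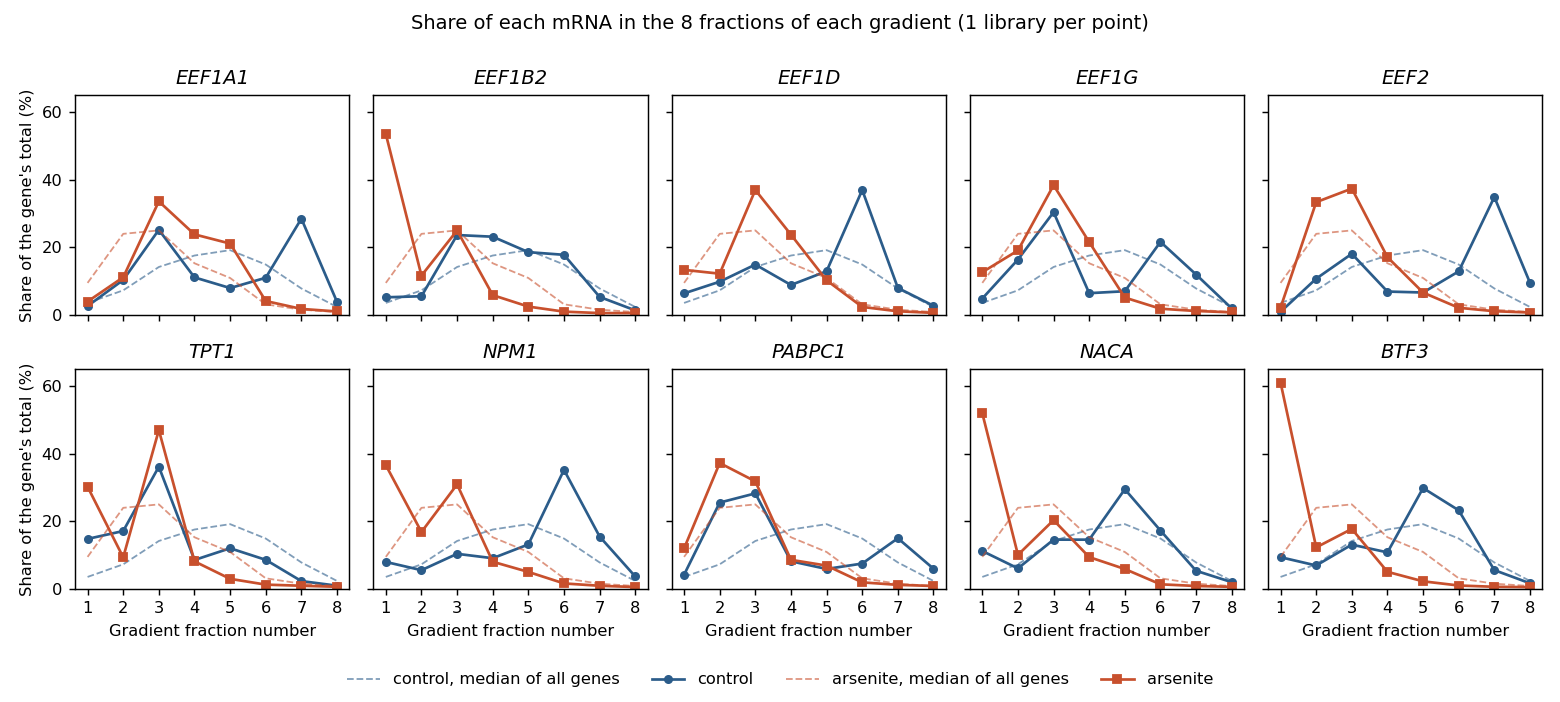
Share in percent of each of the 10 mRNAs (vertical axis) in gradient fractions 1 to 8 (horizontal axis), control in blue and arsenite in red, 1 library per point, with the median share of all genes dashed. In the control, EEF1A1, EEF1G, EEF2 and PABPC1 show a dip in fractions 4 and 5 between 2 peaks; with arsenite EEF1B2, NACA and BTF3 have over 50% in fraction 1.

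A simple measure of the split compared the lowest share between the 2 peaks with the smaller peak, the lower peak being the largest of fractions 1 to 3 and the upper peak the largest of fractions 5 to 8. This measure was added after the values were seen. The ratio was at most 0.5 for 4 of the 10 mRNAs, against 8.74% of all genes and 4.53% of the 11625 genes with no value of 0. Those 4 were EEF1G (0.30), EEF1A1 (0.31), EEF2 (0.36) and PABPC1 (0.39). EEF1D followed at 0.59 and TPT1 at 0.71, while NPM1 (0.87), BTF3 (0.82), NACA (1.00) and EEF1B2 (1.25) had little or no dip. Among related messages, the ratio was at most 0.5 for 27 of 75 cytosolic ribosomal proteins (36.0%) and for 5 of 14 other TOP mRNAs, which were EIF3F, EIF3H, EIF3L, EIF4B and GNB2L1. With size factors the counts were 7 of the 10 mRNAs and 37.8% of all genes, so how often a split appears depended on the scaling. On the deposited shares of the arsenite gradient none of the 10 met this measure, nor did most other genes (7.43% of all genes met it). With size factors EEF1B2, TPT1 and BTF3 had a low point in arsenite fraction 5 (2.39, 3.33 and 2.05%). Their upper peak was then in fraction 8 (6.30, 8.59 and 5.64%), which puts them within the limit of 0.5. The share of all genes was not counted on that scale.

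In the control, the fraction of the upper peak was ordered by coding length. It was fraction 5 for TPT1 (172 codons), BTF3 (162 to 206 codons, by isoform), NACA (215 codons) and EEF1B2 (225 codons). It was fraction 6 for NPM1 (294 codons) and EEF1G (437 codons). It was fraction 7 for EEF1A1 (462 codons), PABPC1 (636 codons) and EEF2 (858 codons). EEF1D, at fraction 6, has annotated isoforms of 238 to 697 codons and cannot be placed in this order. The same trend was present over all genes, whose mean upper peak went from 5.12 in those of up to 250 codons to 5.87 in those of over 550 and up to 1000 codons and 6.29 above that. It was 5.33 in genes of over 250 and up to 350 codons and 5.57 in those of over 350 and up to 550. NPM1, EEF1G, EEF1A1, PABPC1 and EEF2 each peaked at a higher number than the mean of their length class. TPT1, BTF3, NACA and EEF1B2 were at fraction 5, the lowest number the measure can give, so they could only lie below theirs. A gene whose shares fall at each step from fraction 5 to 8 is put at fraction 5, whether or not it has a peak there. That held for these 4 mRNAs and for 45.9% of all genes. The shares of EEF1B2 fell from fraction 3 on, so it had no separate upper peak. With size factors EEF1B2 was at fraction 6, EEF1G at 7 and PABPC1 at 8, and the others were as before, so EEF2 then lay below PABPC1 although it is longer.

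**Figure D2:**
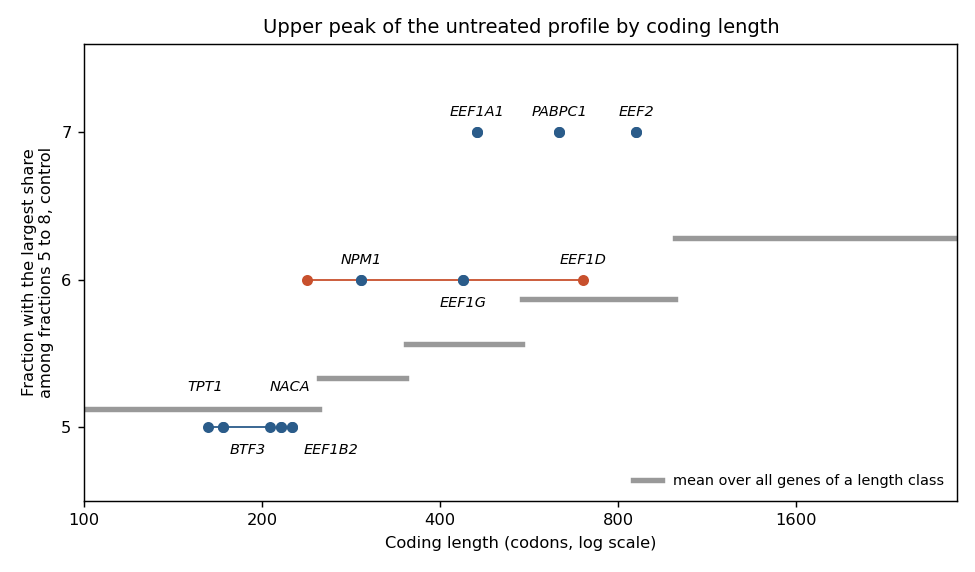
Fraction with the largest share among fractions 5 to 8 of the control gradient (vertical axis) against coding length in codons (horizontal axis, log scale) for the 10 mRNAs, where a line joins the shortest and longest annotated isoform and grey bars are means over all genes of a length class. Messages of up to 225 codons sit at fraction 5, the lowest number the measure can give. Those of 462 codons or more sit at fraction 7, with EEF1D (red) spanning 238 to 697 codons at fraction 6.

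With arsenite all 10 mRNAs lay at a lower position on the deposited shares, as did 98.3% of all genes. Size factors take out most of the move that genes have in common: the median shift of all genes was −1.46 fractions on the deposited shares and −0.23 with them. On that scale 8 of the 10, against 58.8% of all genes, still lay lower with arsenite. The exceptions were TPT1, which went from 2.61 to 3.10, and EEF1G, which went from 3.97 to 3.99. The deposited shares of all 10 mRNAs became smaller with each step from fraction 5 to fraction 8, as in 88.7% of all genes, but with size factors this held for none of the 10 and for 9.64% of all genes. Fractions 5 to 8 together held between 4.11% (BTF3) and 27.7% (EEF1A1) of each, against 23.6% (TPT1) to 67.3% (NPM1) in the control. The median over the 10 went from 52.4% to 8.53%, and that over all genes from 53.9% to 16.4%. With size factors the values for the 10 were 43.5% and 29.2%, and 8 of the 10 had a smaller share there with arsenite, as did 55.3% of all genes. The other 2 had a larger one: EEF1A1 (57.1% and then 59.6%) and TPT1 (15.8% and then 23.8%).

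EEF1A1 had the largest share of the 10 in fractions 5 to 8 with arsenite. Arsenite fractions 1 to 8 held 3.89, 11.1, 33.5, 23.8, 21.0, 4.04, 1.70 and 0.952% of it. Its shares in fractions 4 and 5 exceeded those of 87.7% and 84.1% of genes, and its share in fraction 1 those of 14.6%. The share in fraction 7 was 28.4% in the control and 1.70% with arsenite, a ratio of arsenite to control of 0.060 where the median gene had 0.166. With size factors fraction 7 held 31.9% in the control and 12.1% with arsenite, and fraction 5 was then the largest with arsenite, at 20.8%.

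The exchange factor subunits parted ways. EEF1B2 had arsenite shares of 53.5, 11.6, 24.9, 5.79, 2.39, 0.896, 0.477 and 0.470%, and its share in fraction 1 was 10.4 times the control value of 5.14%, where the median gene had a ratio of 2.70. With size factors that share was 17.2% in the control and 65.1% with arsenite. EEF1D had shares of 13.3, 12.1, 36.9, 23.7, 10.2, 2.29, 1.00 and 0.540%. EEF1G had shares of 12.6, 19.0, 38.3, 21.5, 5.06, 1.77, 1.09 and 0.691%. EEF1D and EEF1G both peaked in fraction 3, where about 90% of genes had less (89.5% and 91.8%), whereas EEF1B2 had most of its total in fraction 1. With size factors EEF1D was instead largest in fraction 4 (19.7%), with 18.6% in fraction 1 and 18.0% in fraction 3. EEF1G then had 18.4% in fraction 1, 19.4% in fraction 3 and 18.5% in fraction 4. On that scale both thus had about as much in fraction 1 as in fractions 3 and 4.

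EEF2 had arsenite shares of 2.08, 33.3, 37.3, 17.0, 6.55, 2.04, 1.03 and 0.643%. Fractions 2 and 3 thus held most of EEF2 on the deposited shares, but with size factors they held 19.1 and 21.2%. Its share in fraction 7 was 34.8% in the control and 1.03% with arsenite, a ratio of 0.030 where the median gene had 0.166, and with size factors it was 33.0% and 9.90%. In fraction 1, 5.1% of genes had a lower share than EEF2. PABPC1 had shares of 11.9, 37.2, 31.8, 8.53, 6.83, 1.87, 1.13 and 0.793%. It was the only 1 of the 10 with its largest share in fraction 2, which was the largest fraction for 34.5% of all genes.

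TPT1 had arsenite shares of 30.2, 9.27, 47.0, 8.08, 2.91, 1.20, 0.865 and 0.559%. Its share in fraction 3 was above that of 97.7% of genes, and in the control 97.9% had been below it. With size factors fraction 1 was the largest for TPT1 in both gradients, at 36.9% in the control and 42.1% with arsenite. NPM1 had shares of 36.6, 16.8, 30.9, 7.97, 4.96, 1.55, 0.857 and 0.477%. NPM1 held 67.3% in fractions 5 to 8 of the control and 7.84% with arsenite, and with size factors 59.6% and 24.5%.

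The 2 nascent chain subunits again had like profiles. NACA had arsenite shares of 51.9, 10.0, 20.3, 9.34, 5.82, 1.29, 0.794 and 0.544%. BTF3 had shares of 61.0, 12.2, 17.7, 4.98, 2.17, 0.935, 0.558 and 0.446%, and 97.4% of genes had less in fraction 1. The share in fraction 1 was 4.66 times the control value for NACA and 6.55 times for BTF3, where the median gene had a ratio of 2.70. With size factors it was 32.0% in the control and 59.6% with arsenite for NACA, and 27.9% and 70.1% for BTF3.

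Arsenite fraction 2 held less than both fractions 1 and 3 in 6 of the mRNAs, EEF1B2, EEF1D, TPT1, NPM1, NACA and BTF3. Over all genes this shape was found in 8.03%. With size factors it was found in 7 of the 10 mRNAs and 32.8% of all genes. Messages with short coding regions had the larger fraction 1 shares with arsenite, 30.2 to 61.0% for the 5 with at most 294 codons whose length is unambiguous or varies little (TPT1, BTF3, NACA, EEF1B2 and NPM1), and 2.08 to 12.6% for EEF1G, EEF1A1, PABPC1 and EEF2. Over all genes the median fraction 1 share went from 29.2% in those of up to 250 codons to 6.91% in those of over 550 and up to 1000 codons, so the same order was present over all genes.

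**Figure D3:**
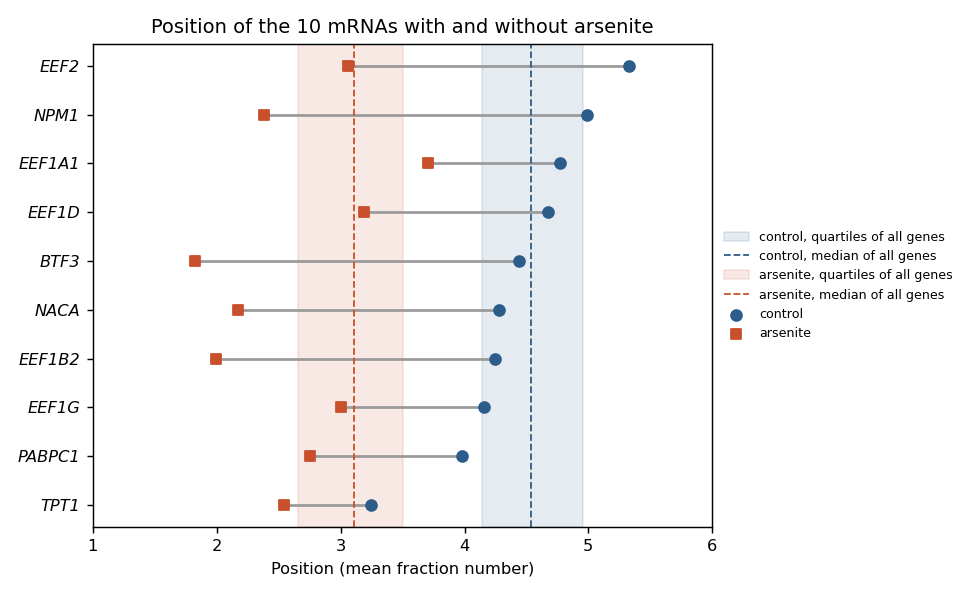
Position, the share-weighted mean fraction number (horizontal axis), of the 10 mRNAs in the control (blue circles) and arsenite (red squares) gradients, 1 value per gradient, with dashed lines and bands for the median and quartiles of all genes. On these deposited shares all 10 lie lower with arsenite, which held for 8 with size factors; TPT1 moved least, from 3.25 to 2.54, and BTF3 most, from 4.44 to 1.82.

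In the control the order of positions from low to high was TPT1 (3.25), PABPC1 (3.98), EEF1G (4.16), EEF1B2 (4.25), NACA (4.27), BTF3 (4.44), EEF1D (4.68), EEF1A1 (4.77), NPM1 (4.99) and EEF2 (5.33). With arsenite it was BTF3 (1.82), EEF1B2 (1.99), NACA (2.17), NPM1 (2.38), TPT1 (2.54), PABPC1 (2.75), EEF1G (3.01), EEF2 (3.06), EEF1D (3.19) and EEF1A1 (3.71). With size factors the control order was TPT1, NACA (3.66), BTF3 (3.83), EEF1B2, EEF1G, PABPC1 (4.31), EEF1D, NPM1, EEF1A1 and EEF2. In the arsenite gradient EEF2 (4.34) then lay above EEF1D (4.03), and the rest kept their order. Without replicates it is not known which neighbours in these orders differ beyond error. NPM1 went from the second highest place (the third highest with size factors) to the fourth lowest. EEF1A1 had the highest position of the 10 with arsenite, above that of 85.3% of genes, and BTF3 the lowest, above that of 3.56%.

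Subtracting the control position from the arsenite position gave the shift of a gene, in fractions. The relative shift is the shift of a gene less the median shift of all genes. Higher and lower therefore mean relative to the median gene in what follows. To be called moved, a gene needed a relative shift of 0.5 fractions or more in either direction whose sign held under the removal of any 1 fraction number from both gradients. By this rule 1 of the 10 mRNAs moved higher, where 23.6% of all genes did, and 3 moved lower, where 24.0% of all genes did. TPT1 was the 1 called higher, at 0.75: its position fell, from 3.25 to 2.54, but by less than that of the median gene. BTF3 (−1.16), NPM1 (−1.15) and EEF2 (−0.81) moved lower, and EEF2 lay at −1.42 with size factors. The median of the 10 was −0.34, and it was 0.02 when fraction 1 was left out. Relative shift also followed coding length over all genes. Its median was −0.32 in those of up to 250 codons and −0.18 in those of over 250 and up to 350. It was 0.11 in those of over 550 and up to 1000 codons and 0.30 above that. Control position also bears on the shift, because a gene that starts low, such as TPT1, has less room to fall. The lists below started at median control positions from 3.91 (cytosolic ribosomal proteins) to 5.25 (mitochondrial elongation factors). Neither the 10 mRNAs nor these lists were compared in relative shift with genes of like length or like control position. What part either has in the calls was not tested.

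The other 6 did not meet the rule. EEF1B2 (−0.80) and NACA (−0.65) were past 0.5 in size, but their relative shifts were 0.00 and 0.05 without fraction 1. With size factors EEF1B2 lay at −1.45. EEF1A1 lay at 0.39 (0.13 with size factors, 0.98 without fraction 7), EEF1G at 0.30 (−0.01 without fraction 2), PABPC1 at 0.23 (−0.11 with size factors) and EEF1D at −0.03. Among the called genes, TPT1 lay at 0.41 without fraction 2 or 3, BTF3 at −0.38 without fraction 1, and EEF2 at −0.20 without fraction 7. NPM1 was called lower under each of 12 alternatives that changed the scaling, the fractions used, the pseudocount, the summary or the reference genes.

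**Figure D4:**
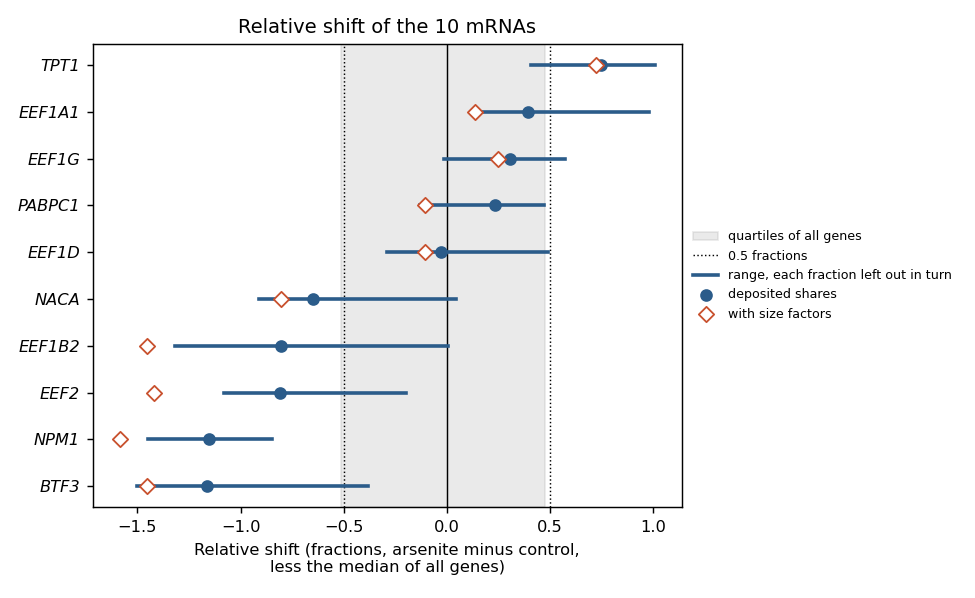
Relative shift in fractions (horizontal axis) of the 10 mRNAs from the deposited shares (filled circles) and with size factors (open diamonds), with lines for the range when each fraction number is left out in turn, dotted lines at 0.5 fractions and a band for the quartiles of all genes. NPM1, BTF3 and EEF2 lie below −0.5 with lines that do not cross 0, TPT1 lies above 0.5, and the lines of EEF1B2 and NACA reach 0.

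The likeness of profiles was measured as overlap, the sum over fractions of the smaller of the shares of a pair of genes, averaged over both gradients and taken from the deposited shares only. The 45 pairs among the 10 mRNAs overlapped by 47.6 to 90.7%, with a median of 68.0%. NACA and BTF3 were the most alike pair, at 90.7%. They were followed by EEF1B2 with NACA at 87.0%. Among the eEF1 subunits EEF1D and EEF1G overlapped by 82.7%, EEF1A1 and EEF1G by 77.2%, and EEF1A1 and EEF1B2 by 58.9%. BTF3 and EEF2 were the least alike pair.

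Over all genes with no 0, the closest profile to that of NACA was NACA2 (95.8%) and the closest to PABPC1 was PABPC3 (94.3%). Both are retrocopies of the gene they resemble, so reads may be shared between them. The part of shared reads in this likeness was not tested. Ribosomal protein messages were among the 3 closest profiles for EEF1B2 (RPS14, 89.2%), EEF1D (RPL3, 91.6%), EEF1G (RPL4, 90.8%), TPT1 (RPS18, 89.0%, and RPS12, 88.0%) and BTF3 (RPL6, 93.7%). Closer than these were PSTK (91.6%) and NMRK1 (90.8%) for EEF1B2 and FZD2 (92.3%) for EEF1D, and LOC100287482 (88.4%) was second for TPT1. No RPS or RPL message was among the 3 closest for EEF1A1, EEF2, NPM1, PABPC1 or NACA. How often other genes have one among their 3 closest was not counted. The closest to NPM1 was GNB2L1 (91.6%), which encodes the ribosomal scaffold protein RACK1, and the third closest to EEF1G was EIF3L (89.2%), a subunit of initiation factor eIF3. The closest to EEF1A1 was ACAD10 (92.5%), the closest to EEF2 was GFPT2 (91.8%), and the closest to BTF3 was EIF1B (94.3%).

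Other messages of the pathway were taken from fixed lists. The shares of all genes called, 23.6% higher and 24.0% lower, are the reference for the counts of each list. Of 14 other TOP mRNAs, 1 was called higher and 5 lower, with a median relative shift of −0.23 (−0.61 with size factors). EIF4A2, an RNA helicase of the initiation complex, was the highest at 0.68, and VIM, the intermediate filament protein vimentin, the lowest at −1.46. Of 75 cytosolic ribosomal proteins, 9 were called higher and 10 lower, and the median was −0.16, a value that was 0.29 without fraction 1, 0.22 without fraction 5 and −0.40 with size factors. RPS3A was highest at 1.25 and RPS7 lowest at −1.79, where RPS7 was listed at 0 in 1 library.

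Among 17 elongation and termination partners none moved higher, where 23.6% of all genes did. Of these partners 10 moved lower (58.8%, against 24.0% of all genes), and the median was −0.71. EEF1A2, the tissue-restricted paralog of EEF1A1, was the lowest of them: its position was 5.63 before and 2.70 after arsenite, a relative shift of −1.48. EEF1A1, which started lower at 4.77, had a relative shift of 0.39. DPH2, an enzyme of diphthamide synthesis on eEF2, was the highest at 0.13. Of 5 mitochondrial elongation factors, 3 moved lower and none higher, with a median of −0.80, from GUF1 at −0.02 (0.04 with size factors) to TSFM at −1.70. Of 10 genes of the poly(A)-binding protein family and its partners, 3 were called higher and 3 lower, and the median of 0.04 was −0.11 with size factors. PABPC1L was highest at 1.23 and PAIP2, an inhibitor of PABPC1, lowest at −0.92.

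Of 10 nascent chain factors, 5 moved lower and none higher, where 24.0% and 23.6% of all genes did. Their median was −0.59, from DNAJC2 at 0.38 to SRP54, a subunit of the signal recognition particle, at −1.35. Of 10 nucleolar proteins, 5 moved lower and 1 higher, with a median of −0.65. NOP56, a core protein of box C/D snoRNPs, was the one that moved higher (0.52), and FBL, the rRNA methyltransferase fibrillarin, was lowest at −1.17. Of 16 regulators of TOP mRNAs, 3 were called higher and 3 lower (18.75% each, below the shares of all genes). Their median was 0.11 (−0.03 without fraction 2). EIF4EBP2, a repressor of the cap-binding factor eIF4E, was highest at 0.98, and CNBP, a protein that binds TOP messages, lowest at −0.74.

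**Figure D5:**
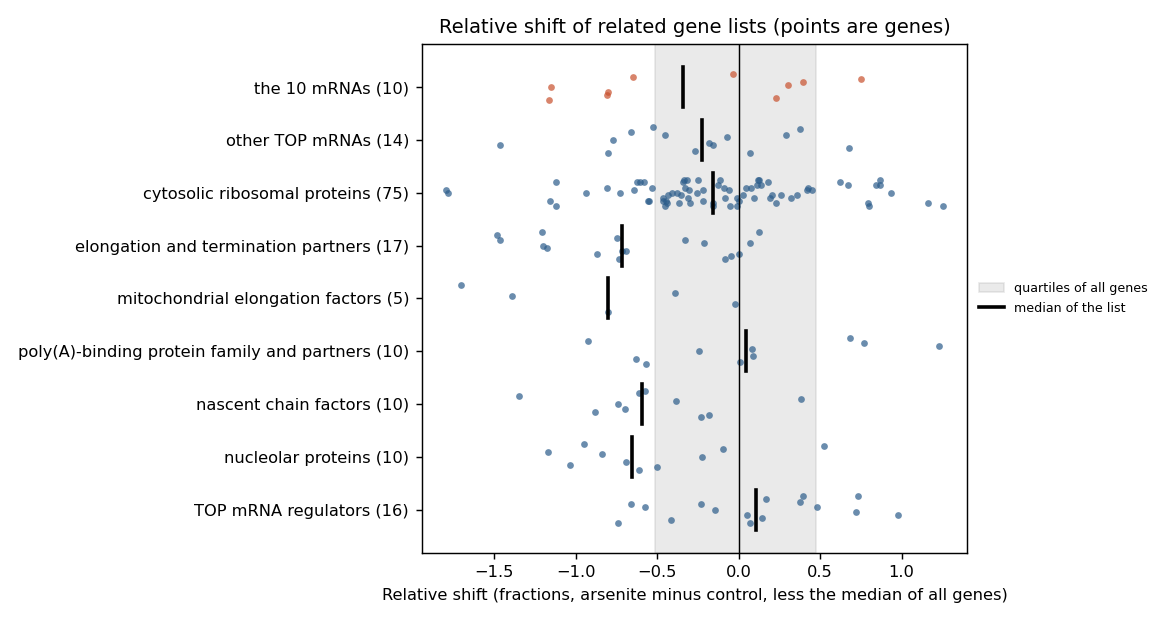
Relative shift in fractions (horizontal axis) of every measured gene of the 9 lists (rows, number measured in brackets), with a black bar for the median of each list and a band for the quartiles of all genes. The 10 mRNAs (red) run from −1.16 to 0.75 around a median of −0.34, and the elongation and termination partners have a median of −0.71 with no gene above 0.13.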

How the data were processed

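The authors deposited 1 table with 16 library columns in the unit fraction, the share of a gene's total in 1 fraction of a gradient, and 3 columns in the unit score, the mean fraction number in each gradient and their difference. Shares summed to 1 within 2.3e-15, and recomputed mean fraction numbers differed from the deposited scores by at most 8.9e-15. Per the labels, RNA was extracted with Trizol and sequenced by a method named NSR. Per the file headers, values refer to RefSeq exons, and per the submitters' processing notes the build was hg19. The sources used here do not give aligner, counting, strand or scaling. Depth is unknown, so no interval or floor is given.

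The members and lists were chosen with earlier results of these data known. Named genes were the 10 members, the highest and lowest of each other list, and the 3 closest profiles of each member. All calls were made over the whole table with Python 3.11.15 and numpy 2.4.6. The call rule was also run on simulated profiles with known moves larger than its threshold, at assumed read depths. Library scaling and error between gradients were not simulated, so that run does not give the error of the calls made here. Coding lengths came from GENCODE release 29 (1 principal transcript per gene, matched for 93.7% of genes), start sequences from RefSeq. These are on GRCh38, not hg19. Alternatives were size factors, a pseudocount of 1 percentage point, leaving out each fraction, the 50% point, other thresholds, other upper fractions and a median over genes with no 0.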

Additional observations from a re-analysis of the deposited data

How the results depend on the processing

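No paired analysis was possible because each treatment and fraction has 1 library and the labels give no replicate numbers. The median relative shift of the 10 mRNAs was −0.34. It was −0.46 with size factors, −0.32 with the pseudocount, −0.63 with the 50% point and −0.31 against genes with no 0. Leaving out fractions 1 to 8 in turn gave 0.024, −0.55, −0.47, −0.37, −0.26, −0.19, −0.16 and −0.33, so the sign turned without fraction 1. The count moved higher, 1, was 0 without fraction 2, without fraction 3 or at a threshold of 1 fraction, 2 without fraction 6, without fraction 7 or at a threshold of 0.25, and 3 with the 50% point. The count moved lower, 3, was 5 without fraction 2 and 2 to 4 under the other alternatives. Over all genes 34.8% were called higher and 31.3% lower at a threshold of 0.25, and 6.69% and 9.33% at a threshold of 1. Under the other alternatives 20.6 to 28.7% of all genes were called higher and 19.5 to 26.4% lower. In fractions 5 to 8 the members had a median share of 52.4% (control) and 8.53% (arsenite). It was 32.8% and 3.22% in fractions 6 to 8, 67.1% and 18.5% in fractions 4 to 8, and 43.5% and 29.2% with size factors. Of the 10 mRNAs, 4 had a split control profile, against 7 with size factors, 5 at a ratio of 0.67 and 2 at 0.33, all chosen after seeing the data. Over all genes the share was 8.74%, and 37.8% with size factors, and it was not counted at 0.67 or 0.33. All 10 lay at a lower position, and had a lower share in fractions 5 to 8, with arsenite, against 8 each with size factors, an alternative also chosen after seeing the data. On that scale 58.8% of all genes had a lower position and 55.3% a lower share there. Of 140 values of single mRNAs under alternatives, 121 kept their call or lack of one, 11 gained a call and 8 lost one. Unknown depth and scaling and the lack of replicates limit all values, and the causes of these changes were not tested.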
